A study of Mus musculus with 9 samples.

Results

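The genes described here are the protein-coding neighbours of Apoe on mouse chromosome 7. They were chosen by position and by level: genes whose start lies from base 9700000 to base 29700000 of chromosome 7 (GRCm38), with at least 1 FPKM in at least 4 of 9 libraries, leaving out Apoe and its neighbour Apoc1. FPKM is a read density, scaled by exon length and library depth. The annotation (GENCODE M21) holds 481 protein-coding genes in this window. The deposited table lists 290 of them besides Apoe and Apoc1, and 187 passed the level rule. These 187 genes are 79 to the left of Apoe and 108 to its right, out of 13383 genes of the whole genome that passed the same level rule.

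RNA of whole aorta was sequenced in 9 libraries. The 4 Apoe_KO libraries are from Apoe-knockout mice and the 5 WT libraries from C57BL/6J mice of wild-type genotype. All mice were male, 7 to 8 weeks old and on normal chow. The labels do not say that each library is a separate animal, so p-values measure only the spread between these samples. They also give no Apoe allele, strain of origin or breeding history for the knockout, so an effect of losing Apoe and a difference in DNA inherited with the knockout allele cannot be told apart in genes beside it. In bulk tissue, fewer cells of a type and less RNA per cell cannot be told apart either.

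Apoe encodes apolipoprotein E, a protein of plasma lipoproteins that receptors in the liver bind to clear them, and mice without it develop atherosclerosis. The gene lies in a small cluster with other apolipoprotein genes. The surrounding part of chromosome 7 is dense in genes and holds several tandem families. Among them are KRAB zinc finger genes, which encode DNA-binding repressors, and genes of cytochrome P450 family 2, which encode enzymes that oxidise drugs and other small molecules.

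The FPKM values corresponded to library depths of 17.003 to 19.765 M reads. Apoe, the reference point of every distance given here, averaged 6.22 ± 0.401 FPKM in Apoe_KO (SD, n = 4) and 563 ± 54.0 FPKM in WT (SD, n = 5). Smooth muscle markers (5 of 5 tested, 0 called) summed to 4742 to 6007 FPKM in Apoe_KO and 4644 to 5533 FPKM in WT. The white adipocyte list had 2 of 5 markers called lower, the endothelial and Schwann cell lists 1 of 5 each, and the other 12 marker lists 0 in either direction by limma. In some of these 12 few of the 5 genes were tested: 1 for lung epithelium, 2 for T cell and for liver, and 3 for B cell. Red blood cell markers (4 of 5 tested) summed to 35.1 to 357 FPKM in Apoe_KO and 133 to 984 FPKM in WT. Endothelial markers summed to 157 to 272 FPKM in Apoe_KO and 171 to 298 FPKM in WT, and Schwann cell markers to 72.4 to 141 FPKM in Apoe_KO and 128 to 161 FPKM in WT. Libraries Apoe_KO 4 and WT 2 stood apart by B cell transcripts: 5 marker genes summed to 330 FPKM in Apoe_KO 4 and 14.7 to 31.1 FPKM in the other Apoe_KO libraries, and to 406 FPKM in WT 2 and 23.4 to 36.8 FPKM in the other WT libraries.

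Of the 187 genes, 31 (16.6%) were called at a limma adjusted p below 0.05 over all tested genes. The background share was 7.35% of 13383 genes. In Apoe_KO 12 members were higher, where 3.43% of all genes were, and 19 were lower, where 3.92% of all genes were. The split depended on scaling: median centring gave 16 members higher and 12 lower (all genes 630 and 269), and quantile normalization 13 higher and 10 lower (all genes 485 and 240). Of the 137 members whose exons overlap no other gene, 8 were higher and 13 lower. The groups did not overlap in any of the 31, and in 48 members (25.7%) in all, against 12.4% of all genes. On the rest of chromosome 7, 58 of 713 protein-coding genes (8.13%) were called, and on the other chromosomes 831 of 11155 (7.45%), with single chromosomes between 5.99% and 9.31%. The median log2 fold change of the members was -0.09, beside -0.07 over all tested genes, and 64.7% of members lay below 0, beside 63.9%. Fold changes are Apoe_KO over WT of log2(FPKM + 1), so that those of weakly expressed genes are shrunk towards 0.

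The number of calls depended on single libraries. Without Apoe_KO 3 it was 13 members (6.95%, beside 2.91% of all genes), without Apoe_KO 1 it was 14 (7.49%, beside 4.8%), and without WT 1 also 14 (7.49%, beside 4.38%). Without WT 4 it was 14 (7.49%, beside 3.59%), without WT 2 it was 15 (8.02%, beside 4.37%), and without WT 5 it was 18 (9.63%, beside 4.54%). Leaving out Apoe_KO 2 gave 34 calls (18.2%, beside 9.4%). Leaving out Apoe_KO 4 gave 21 (11.2%, beside 5.01%) and WT 3 gave 22 (11.8%, beside 6.03%). The share of members called exceeded that of all genes in each of these 9 fits. The 12 members that kept their call in all 9 were Inafm1, Sae1, Slc1a5, Hif3a, Ccdc61, Klc3, Bcam, Cyp2f2, Paf1, Mrps12, Lgals4 and Spint2.

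**Figure D1:**
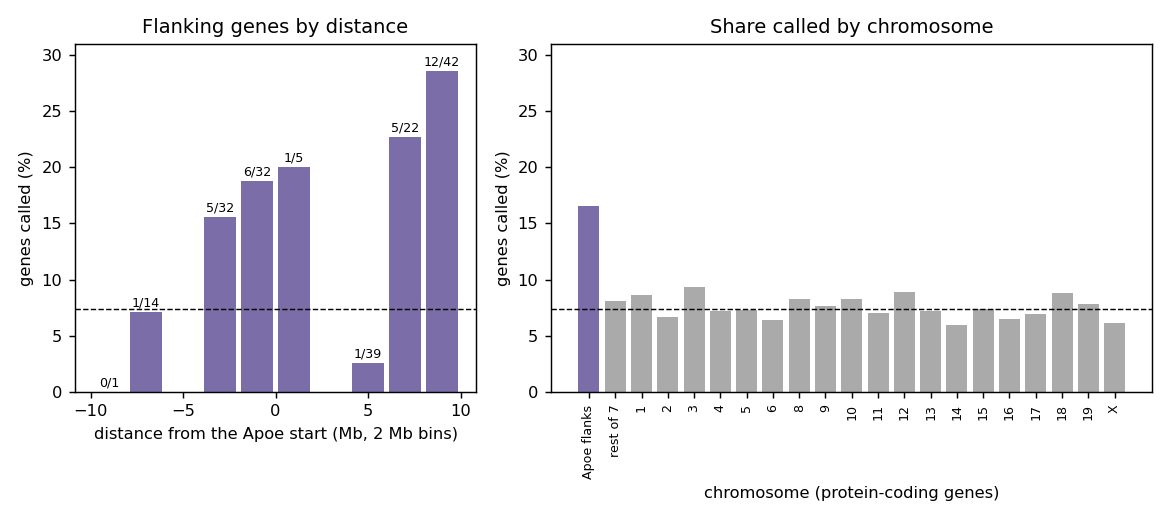
Percent of tested genes called (limma adjusted p below 0.05). Left, members in bins of 2 Mb of distance from the Apoe start, with called over tested genes above each bar; right, all 187 members, the other protein-coding genes of chromosome 7 and those of each other chromosome. The dashed line is the share over all tested genes, 7.35%. The bin 8 to 10 Mb to the right has the highest share, 28.6%, and the bin 4 to 6 Mb to the right 2.56%.

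By position, calls were spread over both flanks rather than gathered at Apoe. In bins of 2 Mb, 6 of the 32 members within 2 Mb to the left were called (18.8%) and 1 of the 5 within 2 Mb to the right (20%). From 2 to 4 Mb to the left 5 of 32 were called (15.6%), and from 6 to 8 Mb to the left 1 of 14 (7.14%). To the right, 1 of 39 was called from 4 to 6 Mb (2.56%), 5 of 22 from 6 to 8 Mb (22.7%) and 12 of 42 from 8 to 10 Mb (28.6%). No member lies 4 to 6 Mb to the left or 2 to 4 Mb to the right. These are counts without a test, and several bins are small.

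**Figure D2:**
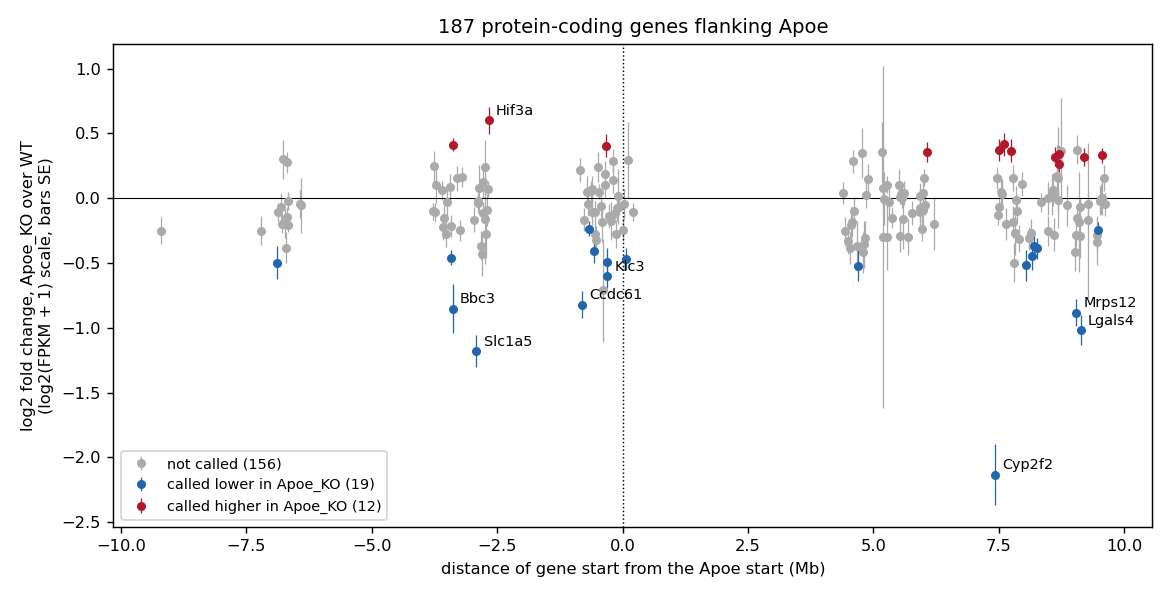
Log2 fold change (Apoe_KO over WT, log2(FPKM + 1) scale) of each of the 187 members against the distance of its start from the Apoe start, with the standard error as a bar. Red points are the 12 called higher in Apoe_KO, blue the 19 called lower, grey the 156 not called. The genes named are those called past 0.55 in either direction; Cyp2f2 is lowest at -2.13.

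Of the 8 members nearest to Apoe, 4 on each side, 1 was called, where 7.35% of all genes were. Genes below the level rule are not counted here, such as Apoc4, which lies between Clptm1 and Apoe. To the left, Gemin7 (of the SMN complex, which assembles spliceosomal particles) had a log2 fold change of -0.28, Clasrp (a splicing regulator) -0.08, Relb (an NF-kappaB subunit) 0.02 and Clptm1 (a membrane protein) -0.06. To the right, Tomm40 (the channel of the mitochondrial outer membrane translocase) was at -0.24, Nectin2 (an adhesion protein) at -0.04 and Bcl3 (an NF-kappaB cofactor) at 0.30. None of these 7 was called. The signs of Clasrp, Relb, Clptm1 and Nectin2 turned under at least 1 other setting each.

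Bcam, the called gene of the 8, fell. It encodes a laminin-binding adhesion protein of the immunoglobulin superfamily, and lies at chr7:19756131-19771016 on the minus strand. It was at 120, 104, 120 and 94.6 FPKM in Apoe_KO, against 156, 142, 160, 145 and 156 FPKM in WT. No Apoe_KO library reached a WT library. The log2 fold change was -0.47 (SE 0.09, limma adjusted p 0.0137), and the call was lost under median centring. Bcam has antisense overlap with Gm26600, and whether reads were counted by strand is not stated, so reads of the pair cannot be told apart.

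The largest decrease was that of Cyp2f2, a cytochrome P450 known for its expression in club cells of the airway. The gene lies at chr7:27119909-27133660, plus strand, 7.4 Mb to the right of Apoe. Its level was 1.59, 4.39, 2.78 and 3.79 FPKM in Apoe_KO, against 19.1, 19.5, 12.3, 20.7 and 12.7 FPKM in WT. The highest Apoe_KO library was below the lowest WT library. The ratio of Apoe_KO to WT means was 0.186, and the log2 fold change -2.13 (SE 0.23, limma adjusted p 0.0015). It overlaps Gm15883 on the other strand.

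Lung epithelium markers were measured beside Cyp2f2. The list (5 genes, 1 tested, 0 called) summed to 1.19 to 1.74 FPKM in Apoe_KO and 0.367 to 16.7 FPKM in WT. By library the sums were 1.32, 1.19, 1.51 and 1.74 FPKM in Apoe_KO, against 2.26, 0.367, 16.7, 1.38 and 1.89 FPKM in WT. The part of such cells in the level of Cyp2f2 was not tested. Sftpa1, a surfactant gene, was listed at 0 in all libraries but WT 3. Of the 7 genes of cytochrome P450 family 2 in the table, Cyp2b10 was the only other one tested, with 1.29, 1.505, 0.704 and 0.361 FPKM in Apoe_KO, against 0.791, 1.197, 1.91, 1.29 and 0.916 FPKM in WT, where the groups overlapped (log2 fold change -0.20). Near-identical copies in this family may share reads.

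Slc1a5, the gene of a neutral amino acid exchanger that carries glutamine, had the highest WT mean of all members. It lies at chr7:16781340-16798274, plus strand, 2.9 Mb to the left of Apoe. It was at 80.7, 95.7, 80.1 and 87.0 FPKM in Apoe_KO, against 155, 184, 211, 248 and 189 FPKM in WT. The groups were far apart, with a ratio of Apoe_KO to WT means of 0.435 and a log2 fold change of -1.18 (SE 0.13, limma adjusted p 0.00136). White adipocyte markers (2 of 5 called lower) summed to 647 to 1189 FPKM in Apoe_KO and 950 to 1460 FPKM in WT, and their part in this result was not tested. Of the 6 tested transporters and pumps, Slc1a5 alone was called, and the median log2 fold change of the list was -0.23.

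Lgals4 encodes a galectin, a sugar-binding protein best known from gut epithelium. At 9.1 Mb to the right of Apoe (chr7:28833854-28841708, plus strand) it was at 2.32, 1.65, 1.28 and 1.76 FPKM in Apoe_KO, against 4.37, 4.09, 4.24, 4.67 and 5.36 FPKM in WT. All 4 Apoe_KO libraries were below all 5 WT libraries. The log2 fold change was -1.02 (SE 0.12, limma adjusted p 0.0015).

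Mrps12 encodes a protein of the small subunit of the mitochondrial ribosome. It lies at chr7:28739641-28741820 on the minus strand, and was at 7.14, 5.65, 5.46 and 8.07 FPKM in Apoe_KO, against 12.6, 14.4, 12.1, 12.4 and 12.8 FPKM in WT. The groups did not overlap, and the log2 fold change was -0.88 (SE 0.11, limma adjusted p 0.00185). Its start is 172 bases from that of Sars2, the gene of the mitochondrial seryl-tRNA synthetase, which is read the other way. Sars2 was at 1.79, 1.72, 1.49 and 1.63 FPKM in Apoe_KO, against 2.41, 2.54, 2.36, 2.08 and 1.83 FPKM in WT, so its groups did not overlap either. Its log2 fold change of -0.28 was not called (limma adjusted p 0.0884).

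The pair is 1 of 10 head-to-head pairs among the members, with starts within 1 kb on opposite strands. In 2 of the others a single partner was called higher. Ppp1r13l, the gene of a p53 inhibitor, was at 0.41 beside 0.10 for Cd3eap, a subunit of RNA polymerase I. Paf1, a subunit of a transcription elongation complex, was at 0.34 beside -0.01 for Med29, a Mediator subunit. In the other 7 pairs neither gene was called.

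Ccdc61, a gene of a centriole protein 0.8 Mb to the left of Apoe, was at 1.33, 1.30, 1.16 and 0.836 FPKM in Apoe_KO, against 2.70, 3.37, 2.54, 2.85 and 2.55 FPKM in WT, with no overlap (log2 fold change -0.82, limma adjusted p 0.00246). Bbc3, which encodes PUMA, a trigger of apoptosis, was at 0.844, 0.761, 0.775 and 1.82 FPKM in Apoe_KO, against 2.91, 2.60, 2.20, 3.89 and 1.85 FPKM in WT. Apoe_KO 4 came close to the lowest WT library. The log2 fold change of Bbc3 was -0.85 (limma adjusted p 0.0261), and the call was lost without Apoe_KO 1, Apoe_KO 3, WT 1, WT 2 or WT 4, with adjusted p up to 0.0853. Klc3, a kinesin light chain gene, was at -0.60 and overlaps Ercc2 on the other strand, the gene of a helicase of DNA repair and transcription, at -0.49. Reads of this pair cannot be told apart.

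The promoter sequences of 4 of these leading decreases are shown because they differ in CpG content. They are the 250 bases before and 50 after the RefSeq start on GRCm38.p6, in the direction of transcription. The capitals mark the CCAAT box, the GC box GGGCGG and the motif CCGGAAGT on either strand. They are the reference sequence of C57BL/6J, and the alleles of the mice were not read. Cyp2f2 is chr7:27119705-27120004 on the plus strand, Lgals4 chr7:28833544-28833843 on the plus strand, Mrps12 chr7:28741772-28742071 on the minus strand and Ccdc61 chr7:18910355-18910654 on the minus strand.
Cyp2f2: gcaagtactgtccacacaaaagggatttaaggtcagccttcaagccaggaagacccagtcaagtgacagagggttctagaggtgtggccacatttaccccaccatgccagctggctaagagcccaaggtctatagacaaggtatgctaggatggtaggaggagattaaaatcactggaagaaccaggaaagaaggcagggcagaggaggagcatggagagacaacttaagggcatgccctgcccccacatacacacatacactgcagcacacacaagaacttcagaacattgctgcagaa
Lgals4: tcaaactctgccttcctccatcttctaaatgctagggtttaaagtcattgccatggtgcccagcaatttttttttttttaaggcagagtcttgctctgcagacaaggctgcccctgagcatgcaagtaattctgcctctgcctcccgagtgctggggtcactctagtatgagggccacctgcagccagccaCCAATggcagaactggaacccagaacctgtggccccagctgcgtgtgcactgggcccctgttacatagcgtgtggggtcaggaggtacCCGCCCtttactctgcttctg
Mrps12: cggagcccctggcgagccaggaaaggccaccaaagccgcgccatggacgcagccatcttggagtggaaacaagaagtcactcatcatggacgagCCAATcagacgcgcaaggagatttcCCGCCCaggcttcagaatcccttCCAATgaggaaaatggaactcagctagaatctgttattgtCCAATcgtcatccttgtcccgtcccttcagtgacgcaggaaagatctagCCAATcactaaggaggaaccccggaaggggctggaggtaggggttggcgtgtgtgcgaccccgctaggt
Ccdc61: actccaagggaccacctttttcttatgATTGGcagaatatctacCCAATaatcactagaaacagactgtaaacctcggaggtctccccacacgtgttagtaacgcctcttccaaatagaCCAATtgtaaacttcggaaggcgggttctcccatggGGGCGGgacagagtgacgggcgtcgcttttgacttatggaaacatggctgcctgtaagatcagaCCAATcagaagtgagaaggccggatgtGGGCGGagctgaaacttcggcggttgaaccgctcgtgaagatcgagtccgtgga

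The Cyp2f2 promoter holds no CpG dinucleotide and none of the 5 motifs searched. That of Lgals4 holds 4 CpG, with 1 CCAAT and 1 GGGCGG. Mrps12 has 16 CpG and 4 CCAAT, and Ccdc61 has 17 CpG, 4 CCAAT and 2 GGGCGG. The Mrps12 window shares 246 bases with that of Sars2. Promoters were found for 166 of the 187 members and 29 of the 31 called, and the median number of CpG was 18 in members and 7 over all 32851 promoters of the table, which include those of non-coding genes.

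Motifs were counted on both strands. TATAAA was in 3.61% of member promoters and 13.6% of all promoters, CCAAT in 42.2% and 37.4%, GGGCGG in 65.7% and 35.7%, and CACGTG in 12.0% and 7.15%. CCGGAAGT, the core of sites bound by ETS factors, was added after the zinc finger promoters had been read, and was in 12.0% of member promoters and 3.89% of all. Among the 29 called members with a promoter the shares were 3.45%, 31.03%, 79.3%, 3.45% and 13.8% in the same order of motifs. A match describes the letters only.

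**Figure D3:**
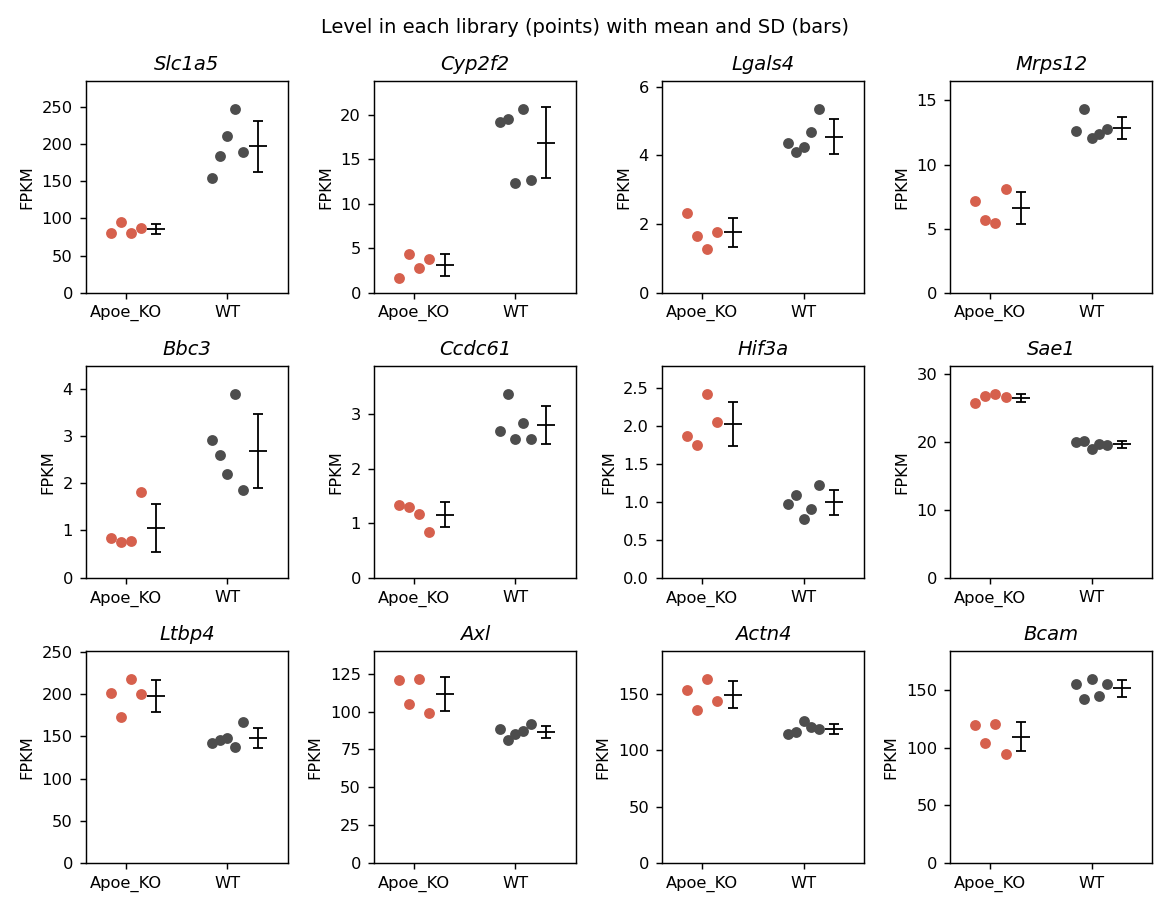
FPKM of 12 called members in each library (points), with the mean and SD of the 4 Apoe_KO libraries (left) and the 5 WT libraries (right) as bars. The first 6 genes were lower in Apoe_KO, as was Bcam; Hif3a, Sae1, Ltbp4, Axl and Actn4 were higher. In all 12 the groups do not overlap, most narrowly in Bbc3.

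The increases were smaller than the largest decreases. Hif3a encodes a hypoxia-inducible factor subunit that can restrain the other members of its family, and had the largest increase. It was at 1.87, 1.75, 2.42 and 2.05 FPKM in Apoe_KO, against 0.973, 1.09, 0.775, 0.904 and 1.22 FPKM in WT. Every Apoe_KO library was above every WT library, and the log2 fold change was 0.60 (SE 0.10, limma adjusted p 0.00996).

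Sae1 encodes a subunit of the enzyme that activates SUMO, a small protein attached to other proteins. It was at 25.8, 26.8, 27.1 and 26.6 FPKM in Apoe_KO, against 20.008, 20.2, 18.97, 19.7 and 19.6 FPKM in WT. The spread within each group was small beside the gap, with a log2 fold change of 0.41 (SE 0.05, limma adjusted p 0.00161). Sae1 lies next to Bbc3, which fell.

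Among the increases were 3 genes with means above 80 FPKM in both groups. Ltbp4, which encodes a protein that binds latent TGF-beta and takes part in elastic fibre assembly, was at 202, 173, 218 and 200 FPKM in Apoe_KO, against 142, 145, 148, 137 and 167 FPKM in WT (log2 fold change 0.42, SE 0.09, limma adjusted p 0.0223). Actn4, the gene of a non-muscle actin cross-linker, was at 154, 136, 164 and 144 FPKM in Apoe_KO, against 114, 117, 126, 120 and 119 FPKM in WT (0.32, limma adjusted p 0.0262). Axl, the gene of a receptor tyrosine kinase that binds Gas6, was at 121, 105, 122 and 99.3 FPKM in Apoe_KO, against 88.3, 81.1, 85.5, 86.9 and 91.5 FPKM in WT (0.36, limma adjusted p 0.0254). The groups did not overlap in any of these 3 genes. Axl and Actn4 were not called under quantile normalization (limma adjusted p 0.0626 for Axl and 0.0733 for Actn4) or with no filter on level (0.0574 for Axl and 0.0553 for Actn4). Ltbp4 and Actn4 were not called without Apoe_KO 4 and WT 2 together (0.0822 for Ltbp4 and 0.0769 for Actn4). Each of the 3 calls was lost without Apoe_KO 1, Apoe_KO 3, WT 1, WT 2 or WT 4, that of Axl also without WT 3 and that of Actn4 also without WT 5, with adjusted p up to 0.0717 for Ltbp4, 0.0815 for Actn4 and 0.0822 for Axl.

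The other increases were below 0.42 on the log2 scale. Spint2, the gene of a serine protease inhibitor, was at 8.50, 7.99, 8.72 and 8.36 FPKM in Apoe_KO, against 6.74, 6.60, 6.00, 6.63 and 6.39 FPKM in WT (log2 fold change 0.33, limma adjusted p 0.0114). Itpkc, an inositol phosphate kinase gene, was at 0.37, Blvrb, the gene of biliverdin reductase B, at 0.37, and Supt5, a transcription elongation factor gene, at 0.32. Samd4b, an RNA-binding protein gene beside Paf1, was at 0.26 and shares exons on the same strand with Pak4. Itpkc, Supt5, Actn4 and Zfp974 each overlap a gene on the other strand. Of the 31 calls, 19 were lost without at least 1 library, 8 higher and 11 lower, and the highest adjusted p of each over the 9 fits ran from 0.0556 to 0.128. Zfp974 was lost in all 9 and Zfp329, Sympk, Itpkc and Zfp607a in 8.

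**Figure D4:**
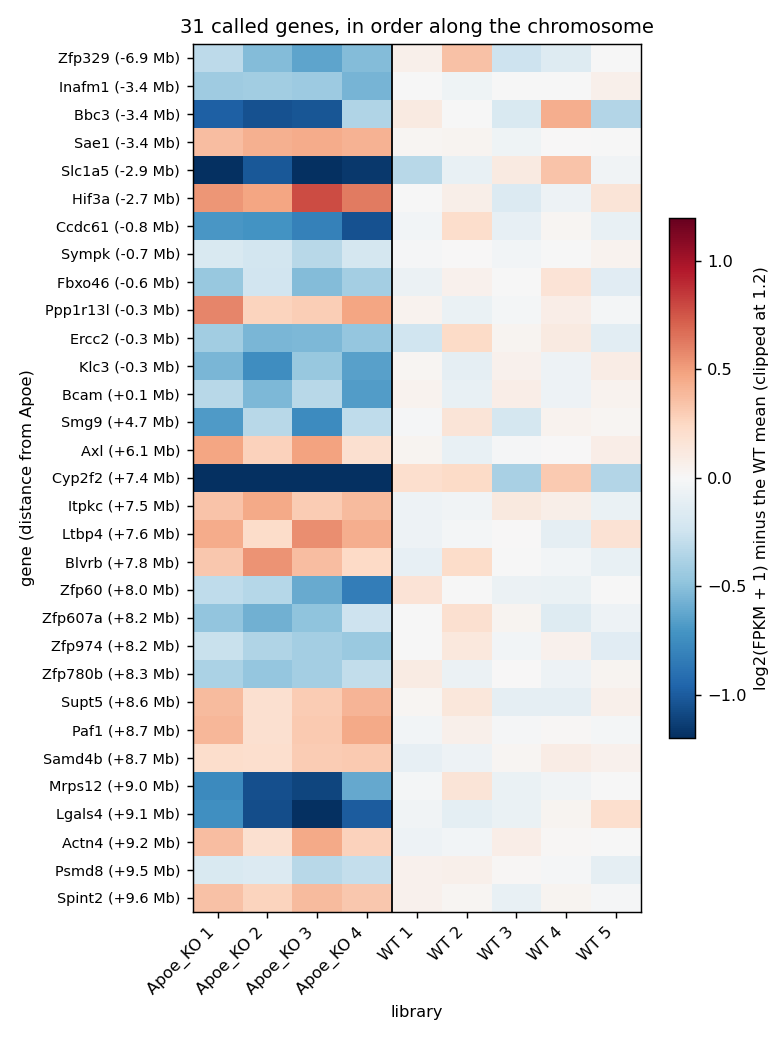
The 31 called members in order along the chromosome, with the distance from Apoe in brackets. Colour is log2(FPKM + 1) in each library minus the WT mean, clipped at 1.2; the 4 Apoe_KO libraries are left of the line and the 5 WT libraries right of it. Within a gene the 4 Apoe_KO libraries share a direction in all 31 genes, which follows from groups that do not overlap. Apoe_KO 4 is the weakest for Bbc3.

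Zinc finger genes formed the largest list. It also holds Trim28, Zbtb45, Zc3h4 and Zfp36, so it is not a single tandem family. The table lists 39 of these genes, of which 29 were tested. In Apoe_KO 0 were called higher by limma (2 at an unadjusted p below 0.05) and 5 lower, with a median log2 fold change of -0.25, beside -0.07 over all tested genes. The 5 are 17.2% of the list, beside 3.92% of all genes called lower. Of the 29, 24 lay below 0 (82.8%, beside 63.9% of all genes), and in 14 the groups did not overlap (48.3%, beside 12.4%). Both counts hold Zfp446, which passed the level rule through WT libraries alone. The counts depended on the scaling, with 2 higher and 2 lower under median centring (median -0.18), 1 higher and 0 lower under quantile normalization (median -0.11), and 0 higher and 6 lower with voom on the recovered reads (median -0.40). Without Apoe_KO 4 and WT 2 together limma called 0 in either direction (median -0.21), with 2 higher and 11 lower at an unadjusted p below 0.05. Some of the genes have close paralogs that may share reads.

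Within the list, 6 neighbouring members lay in a run of 248 kb about 8 Mb to the right of Apoe (Zfp60, Zfp626, Zfp59, Zfp607a, Zfp974 and Zfp780b). This run was picked out after its values had been seen. In all 6 the Apoe_KO libraries were below the WT libraries, 4 were called, and the median log2 fold change was -0.38. Zfp60 was at 2.32, 2.23, 1.702 and 1.31 FPKM in Apoe_KO, against 3.59, 3.08, 2.89, 2.89 and 3.09 FPKM in WT (-0.52, limma adjusted p 0.0292). Zfp780b was at 1.05, 0.939, 1.02 and 1.19 FPKM in Apoe_KO, against 1.86, 1.55, 1.69, 1.56 and 1.74 FPKM in WT (-0.39, limma adjusted p 0.0245). Zfp607a (-0.44) and Zfp974 (-0.37) were also called, while Zfp626 (-0.31) and Zfp59 (-0.27) were not.

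All 6 stayed below 0 under each scaling, with 1 called under median centring, 0 under quantile normalization, 4 with voom and 0 without Apoe_KO 4 and WT 2 together, where 5 passed an unadjusted p of 0.05. No call in the run survived every single left-out library: Zfp60 was lost in 6 of 9 fits (adjusted p up to 0.0921), Zfp607a in 8 (up to 0.107), Zfp974 in 9 (up to 0.113) and Zfp780b in 5 (up to 0.079). The pseudogene Gm10046 inside the run was lower too, at 2.67, 2.81, 3.78 and 1.29 FPKM in Apoe_KO, against 4.56, 7.82, 4.79, 4.30 and 5.10 FPKM in WT (log2 fold change -0.82, limma adjusted p 0.0492). Of the 8 zinc finger members at the left end of the window all lay below 0 and 1, Zfp329, was called (-0.50). Zfp446 among them was below 1 FPKM in every Apoe_KO library and passed the level rule through WT libraries alone. Its direction therefore carries no weight. Of the 8 about 4.5 Mb to the right of Apoe 6 lay below 0, and limma called 0 (1 higher and 3 lower at an unadjusted p below 0.05). In this group voom called 0 higher and 1 lower, while median centring and quantile normalization each gave 1 higher and 0 lower. There Zfp61 was higher without overlap of the groups (0.28, limma adjusted p 0.082). The 7 genes of the list outside these groups, among them Trim28, Zbtb45, Zc3h4 and Zfp36, had a median of -0.14, with 4 below 0.

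Promoters of 3 genes of the run are shown to let their shared stretches be seen, with the capitals as above. Zfp60 is chr7:27731159-27731458 on the plus strand, Zfp974 chr7:27929409-27929708 on the minus strand and Zfp780b chr7:27979108-27979407 on the minus strand.
Zfp60: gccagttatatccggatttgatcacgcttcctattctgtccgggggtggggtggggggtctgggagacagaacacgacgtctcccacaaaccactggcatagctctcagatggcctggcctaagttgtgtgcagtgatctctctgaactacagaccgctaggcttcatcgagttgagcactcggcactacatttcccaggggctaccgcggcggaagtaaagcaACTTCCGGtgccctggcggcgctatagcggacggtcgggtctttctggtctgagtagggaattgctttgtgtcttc
Zfp974: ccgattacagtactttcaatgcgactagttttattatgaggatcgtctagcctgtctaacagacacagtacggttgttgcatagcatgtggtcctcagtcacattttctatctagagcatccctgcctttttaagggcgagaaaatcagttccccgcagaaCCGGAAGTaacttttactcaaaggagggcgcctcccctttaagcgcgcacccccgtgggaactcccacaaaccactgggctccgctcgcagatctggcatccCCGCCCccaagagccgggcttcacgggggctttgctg
Zfp780b: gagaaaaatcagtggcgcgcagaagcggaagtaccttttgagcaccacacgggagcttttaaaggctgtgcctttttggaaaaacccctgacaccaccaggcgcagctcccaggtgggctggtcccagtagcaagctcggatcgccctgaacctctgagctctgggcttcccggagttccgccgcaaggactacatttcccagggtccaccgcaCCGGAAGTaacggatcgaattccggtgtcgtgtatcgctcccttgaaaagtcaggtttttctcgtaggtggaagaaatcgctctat

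The longest stretch in common was 17 bases between Zfp60 and Zfp974, 16 between Zfp60 and Zfp780b and 12 between Zfp974 and Zfp780b. CCGGAAGT was in 4 of the 6 promoters of the run, and CCAAT in 2. Since CCGGAAGT was picked from these sequences, its count among them carries no weight.

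**Figure D5:**
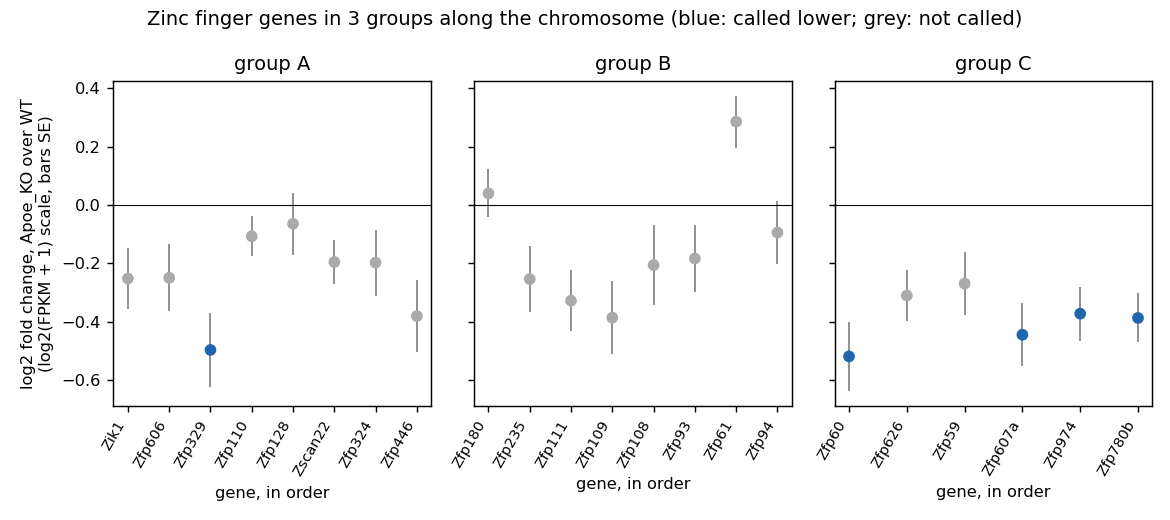
Log2 fold change (Apoe_KO over WT, log2(FPKM + 1) scale) with standard error of 22 zinc finger members in 3 groups along the chromosome: A, at the left end of the window; B, about 4.5 Mb to the right of Apoe; C, about 8 Mb to the right. Blue points were called lower and grey ones were not called; all 6 genes of group C lie below 0.

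Short runs of neighbours that moved one way without overlap of the groups were few, and were collected after the values were known. Besides the zinc finger run there was 1 run of 3, Inafm1, Ccdc9 and Bbc3, all lower, with log2 fold changes of -0.46, -0.21 and -0.85. The 6 pairs were Ccdc61 with Nova2, Fbxo46 with Qpctl, Ercc2 with Klc3, Zfp111 with Zfp109, and Mrps12 with Sars2, all lower, and Paf1 with Samd4b, both higher. Fbxo46 and Qpctl overlap on opposite strands, as do Ercc2 and Klc3.

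The remaining lists were small, and their counts are a description beside the 7.35% of all genes that were called. Of 9 NF-kappaB and stress-response genes (22.2% called), Hif3a was higher and Bbc3 lower, and the median was 0.16, or -0.00 without Apoe_KO 4 and WT 2. A list of 16 genes of gene expression and protein turnover (25% called) held ribosome, proteasome, splicing and transcription genes. In it the transcription elongation genes Supt5 and Paf1 were higher, and Sympk (-0.24), of the mRNA 3′ end machinery, and Psmd8 (-0.24), of the proteasome lid, were lower. No gene of a ribosomal protein or splicing factor in it was called. Of 13 kinase genes (15.4% called), the protein kinase gene Axl and the inositol phosphate kinase gene Itpkc were higher. In a list of 5 genes (20% called) that holds DNA repair genes and Cd3eap, Ercc2 was lower. Of 20 genes of cytoskeleton and trafficking (10% called), Actn4 was higher and Klc3 lower, with a median of -0.03 that turned to 0.03 under median centring.

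A list of 5 genes (40% called) was drawn up for TGF-beta and matrix but also holds Spint2 and Prx. In it Ltbp4 and Spint2 were higher, while Tgfb1 itself was at 0.04. The lowest of the list was Prx, the gene of periaxin, a protein of myelinating Schwann cells. Prx was at 4.41, 6.71, 4.67 and 3.46 FPKM in Apoe_KO, against 7.37, 6.47, 7.57, 8.05 and 5.90 FPKM in WT, where the groups overlapped, and was not called (-0.50, limma adjusted p 0.0718). Schwann cell markers (5 of 5 tested, 1 called lower) summed to 79.4, 141, 87.1 and 72.4 FPKM in Apoe_KO, against 156, 129, 137, 161 and 128 FPKM in WT, and their part in the level of Prx was not tested.

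A list of 8 genes of other mitochondrial proteins, which does not hold Mrps12 or Sars2, had 0 called by limma or with voom. In it 2 were lower at an unadjusted p below 0.05, and the median of -0.03 turned to 0.04 under median centring. Mrps12, described above, was called lower. Under median centring Sympk, Psmd8 and Bcam were not called.

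Some members were high in the libraries rich in B cell transcripts. In 23 members Apoe_KO 4 and WT 2 were the 2 highest libraries, and limma called 0 of the 23, with 0 at an unadjusted p below 0.05 and 0 with voom. Picking genes that are high in a library of each group makes the groups overlap, so this count of calls carries no weight. Cd79a, a chain of the B cell receptor complex, was at 65.1 FPKM in Apoe_KO 4 and 0.510 to 0.773 FPKM in the other Apoe_KO libraries, and at 54.2 FPKM in WT 2 and 1.11 to 2.78 FPKM in the other WT libraries. Relb was at 2.80, 3.23, 2.92 and 5.45 FPKM in Apoe_KO, against 3.26, 5.87, 2.84, 3.24 and 2.63 FPKM in WT. Plaur, the urokinase receptor gene, was at 3.44, 5.04, 3.85 and 8.16 FPKM in Apoe_KO, against 3.63, 3.33, 3.37, 3.32 and 4.52 FPKM in WT, and was not called (0.35). C5ar1, a receptor of the complement fragment C5a, was at 0.09 and not called.

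The level rule left out 103 genes of the table, of which 12 were at 0 in every library. In 9 of the 103 (8.74%) the groups did not overlap. The 12.4% of all tested genes is a share of genes that passed the level rule, so these shares are not like for like. With no filter on level 1 of the 91 that could be fitted was called (1.1%), near the 1.46% of all genes in that fit. It was C5ar2, the gene of the second C5a receptor, named here after its values had been seen. It was at 0.0863, 0.0756, 0.164 and 0.122 FPKM in Apoe_KO (5 to 11 reads), against 0.639, 0.694, 0.641, 0.529 and 0.724 FPKM in WT (36 to 48 reads), with a log2 fold change of -0.56 (limma adjusted p 0.00954). C5ar2 and C5ar1 are neighbours, and C5ar1 was at 4.05, 3.84, 4.65 and 5.66 FPKM in Apoe_KO, against 3.74, 3.96, 4.44, 4.72 and 4.14 FPKM in WT.

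Just inside the level rule were Hipk4, with a value of 1.00 FPKM at rank 4 of its libraries, and Zfp446, with 1.04 FPKM at that rank. Just outside was Zfp551, with 0.978 FPKM at rank 4 and 3 libraries at 1 FPKM or more. Members nearest the ends of the window were Zik1, 9.2 Mb to the left of Apoe (log2 fold change -0.25), and Sipa1l3, 9.6 Mb to the right (-0.05), and neither was called. Below 1 FPKM in every Apoe_KO library were 3 members, Zfp446 among them, which passed the rule through WT libraries alone, and in every WT library 0. Mean levels over the 9 libraries ran from 0.954 to 184 FPKM with a median of 5.88 FPKM.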

How the data were processed

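The authors deposited 1 table of 33293 Ensembl gene identifiers with 9 value columns, 0 of them of no sample. The header names no unit. The deposited values were taken as FPKM because, times the exon length of GENCODE M21, they gave whole reads within 0.1 read for 97.6% to 97.9% of values worth up to 50 reads. Per the submitters' processing notes the build was GRCm38 and limma was used. The aligner, the counting program and any use of strand: not given in the sources used here. PolyA RNA is named in the labels as the molecule, while ribosomal RNA was removed per the labels' protocol.

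The test was limma 3.58.1 (R 4.3.3) on log2(FPKM + 1), with trend and robust options, genotype as sole term and all 9 libraries. A gene entered it with 1 FPKM or more in 4 libraries or more, which left 13383 genes, and p-values were adjusted over all of them (Benjamini-Hochberg, threshold 0.05). The design allowed for counts or normalized values, and the unit set this test. The steps were tested on simulated data. Python 3.11.15, pandas 2.3.3, numpy 2.4.6 and matplotlib 3.10.9 were used. Promoters are from RefSeq.

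Members and lists were chosen with earlier results of these data known. Named genes were, among called members without overlap of the groups, the 10 that rose most and the 10 that fell most, the 4 nearest to Apoe on each side, up to 2 called members per family (or the 1 of smallest p) and those nearest the ends of the rule. Others named, among them Inafm1, Sympk, Zfp607a, Zfp974, Psmd8, Samd4b, Sars2, Prx, Cd79a and C5ar2, were chosen after their values were seen. Alternatives were other pseudocounts, filters, scalings, library weights, voom, a replicate block, left-out libraries and narrower windows.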

Additional observations from a re-analysis of the deposited data

Results flagged for a closer look

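In 37 named members, 74 checks were made of whether a single library lay far from the rest of its group, and 6 did so. Chance gives about 1 in 20 groups. Bbc3 was at 1.821 FPKM in Apoe_KO 4, and at 0.761 to 0.844 FPKM in the other Apoe_KO libraries. Relb was at 5.455 FPKM in Apoe_KO 4, where the other Apoe_KO libraries reached 3.23 FPKM, and at 5.874 FPKM in WT 2, where the other WT libraries reached 3.26 FPKM. Both are the libraries with high B cell transcripts, and the part of those cells was not tested. Blvrb was at 11.27 FPKM in WT 2, against at most 9.44 FPKM in the other WT libraries. Zfp60 was at 3.588 FPKM in WT 1, against at most 3.09 FPKM in the others. Plaur was at 4.517 FPKM in WT 5, against at most 3.63 FPKM in the others.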

How the results depend on the processing

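Counts are given as higher and lower in Apoe_KO, first for members (12 and 19) and then for all genes (459 and 524). With no filter they were 5 and 9 of the 278 genes of the window that could be fitted, and 247 and 198 of all genes. These 278 include genes that are not members, and C5ar2 is among the calls. With a filter of 10 FPKM they were 9 and 7 of 63 members, and 362 and 220 genes. Lower calls were 12 and 269 under median centring and 10 and 240 under quantile normalization, which moved the median of all genes by 0.07 and 0.06. Library weights gave 15 and 27 members, and 702 and 1055 genes. Without Apoe_KO 4 and WT 2 together there were 5 and 9 members, and 202 and 165 genes. Leaving out each library in turn gave 4 to 11 higher and 8 to 23 lower members, and 210 to 580 higher and 179 to 678 lower genes. Within 5 Mb of Apoe 3 and 10 of 85 members were called (15.3%), and within 2 Mb 1 and 6 of 37 (18.9%). The share in the whole window was 16.6%, and that of all genes 7.35%. With the replicate number as a block, limma called 0 and 6 members (19 and 37 at an unadjusted p below 0.05) and 121 and 62 genes. Correlations of deviations between libraries of the same number were 0.259, -0.267, -0.129 and -0.218 for numbers 1 to 4. Apoe_KO 1 correlated best with WT 1, and the other Apoe_KO libraries with a WT library of another number. Differences in cell content also enter these values, so they cannot settle whether the numbers pair the libraries. All 31 calls kept their sign in every alternative that tested them. Uncalled genes turned sign: Clasrp to 0.027 under quantile normalization and 0.0035 without both libraries, Relb to -0.017 with library weights, -0.057 with the block and -0.0013 without both libraries, Clptm1 to 0.0030 and Nectin2 to 0.024 under median centring, Nectin2 to 0.027 under quantile normalization, C5ar1 to -0.023 without both libraries, and Sipa1l3 to 0.020 and 0.079 under these scalings. Leaving out 1 library also turned Relb (range -0.16 to 0.17), Nectin2 (-0.10 to 0.056) and C5ar1 (-0.0064 to 0.15). The cause was not tested. Precision is limited by 4 and 5 libraries, and for C5ar2 by 5 to 48 reads.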

Other observations

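Transcripts of the window other than protein-coding genes numbered 13 that passed the level rule. Of these 2 were called by limma (15.4%, beside 7.35% of all tested genes), a small list without a test. Gm45104, a gene model to be experimentally verified, lies 1.3 Mb to the left of Apoe and was at 2.68, 2.38, 2.05 and 2.18 FPKM in Apoe_KO, against 0.116, 0.0676, 0.0122, 0.0120 and 0 FPKM in WT, where 1 library is listed at 0. Its log2 fold change was 1.67 (limma adjusted p 5.61e-05). It passed the level rule through the Apoe_KO libraries alone, so its call is a description only. The other was the pseudogene Gm10046.
Of the genes below the level rule, Igsf23, of the immunoglobulin superfamily, was at 0.656, 1.10, 0.868 and 1.56 FPKM in Apoe_KO, against 0.201, 0.442, 0.375, 0.0693 and 0.0950 FPKM in WT, and Cyp2t4, of cytochrome P450 family 2, averaged 0.923 FPKM in Apoe_KO and 0.337 FPKM in WT. With no filter on level neither was called by limma (adjusted p 0.0555 and 0.0848), and the groups overlapped in neither. Both were chosen after their values were seen.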
